A study of Mus musculus with 12 samples.

Results

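Marker genes of GABAergic interneurons, 10 in all, were followed through RNA sequencing of the mouse prefrontal cortex (PFC): Gad1, Gad2, Slc32a1, Lhx6, Pvalb, Syt2, Sst, Vip, Npy and Reln. These 10 genes were chosen by name, as pan-GABAergic genes and genes of interneuron subclasses, from the 41388 gene rows of the count table. The rule itself uses no measured value, but the genes were proposed with earlier results of these data known. Each had 1 row, and all 10 passed the filter on low counts over the 12 libraries, as did 16032 genes in all. The libraries came from male Swiss Webster mice aged 10 weeks, with 4 libraries in each of 3 groups. Conventionally raised mice (CON) had microbes throughout life. Germ-free mice (GF) were kept without microbes. The exGF mice were born germ-free and colonized from postnatal day 21, around weaning. RNA of hand-dissected PFC was pooled over 2 to 3 animals before polyA selection, and errors are therefore those between pools and not between single animals. GF mice lived in isolators, and CON and exGF mice in a standard unit, so housing and the absence of microbes cannot be told apart in comparisons of GF with the other groups. The exGF mice left the isolators at postnatal day 21, and germ-free and CON mice came from separate breeding pairs. Early housing and breeding stock therefore cannot be told apart from the early absence of microbes in exGF against CON. In GF against CON, breeding stock likewise cannot be told apart from the absence of microbes. The exGF libraries are called GFR1 to GFR4 here, the names of their columns, and these numbers were not matched to single samples.

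Interneurons are the local inhibitory neurons of the cortex, and they release the transmitter GABA. Most of them belong to a few subclasses: fast-spiking cells with parvalbumin, which contact the cell bodies and axon initial segments of pyramidal neurons, cells with somatostatin, which contact dendrites, and cells with the serotonin receptor Htr3a, many of which make VIP or reelin. Parvalbumin and somatostatin cells arise in the medial ganglionic eminence of the embryonic brain, where the transcription factor Lhx6 is switched on and then kept. In tissue such as this, fewer cells of a type and less RNA per cell cannot be told apart.

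Libraries held 22757169 to 29134760 counts on genes in CON, 13280926 (GF replicate 1) to 23465074 in GF and 22702599 to 28615407 in exGF. The lowest count of any of the 10 genes in any library was 258 (Lhx6 in GF replicate 1). Levels are given as CPM (counts scaled to library size, with TMM factors), each as mean ± SD over the 4 libraries of a group. The summed level of 9 excitatory neuron genes ran from 6932 to 8472 CPM over the 12 libraries. No other brain region was set beside it, so it does not check the PFC label. Other tissue differed between libraries: 9 genes of striatal projection neurons summed to 394 CPM in CON replicate 2 and 407 CPM in GFR4 against 237 to 281 CPM in the other CON and GF libraries. No marker list had a gene at 3 counts or fewer in every library.

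Differences between groups are log2 fold changes from edgeR's quasi-likelihood test, with the standard error (SE) and a Benjamini-Hochberg adjusted p over all genes tested, and a gene is said to have passed the test at an adjusted p under 0.1. None of the 10 genes passed in any of the 3 comparisons. In GF against CON 0.251% of 15542 tested genes passed, in exGF against CON 0.0696% of 15813, and in exGF against GF 0% of 15569. At an unadjusted p under 0.05, 3 of the 10 genes were found in GF against CON (Pvalb and Syt2 higher, Reln lower), where 8.69% of all tested genes were found. In exGF against CON it was Syt2 alone, against 5.33% of all genes. In exGF against GF it was 3 genes (Reln higher, Sst and Npy lower), against 6.65%. By DESeq2, run as an alternative, 1 of the 10 genes (Syt2) passed in GF against CON and in exGF against CON, and 0 in exGF against GF, where DESeq2 passed 1.19%, 0.264% and 0.118% of all genes with an adjusted p. The first and second of these comparisons share the 4 CON libraries.

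**Figure D1:**
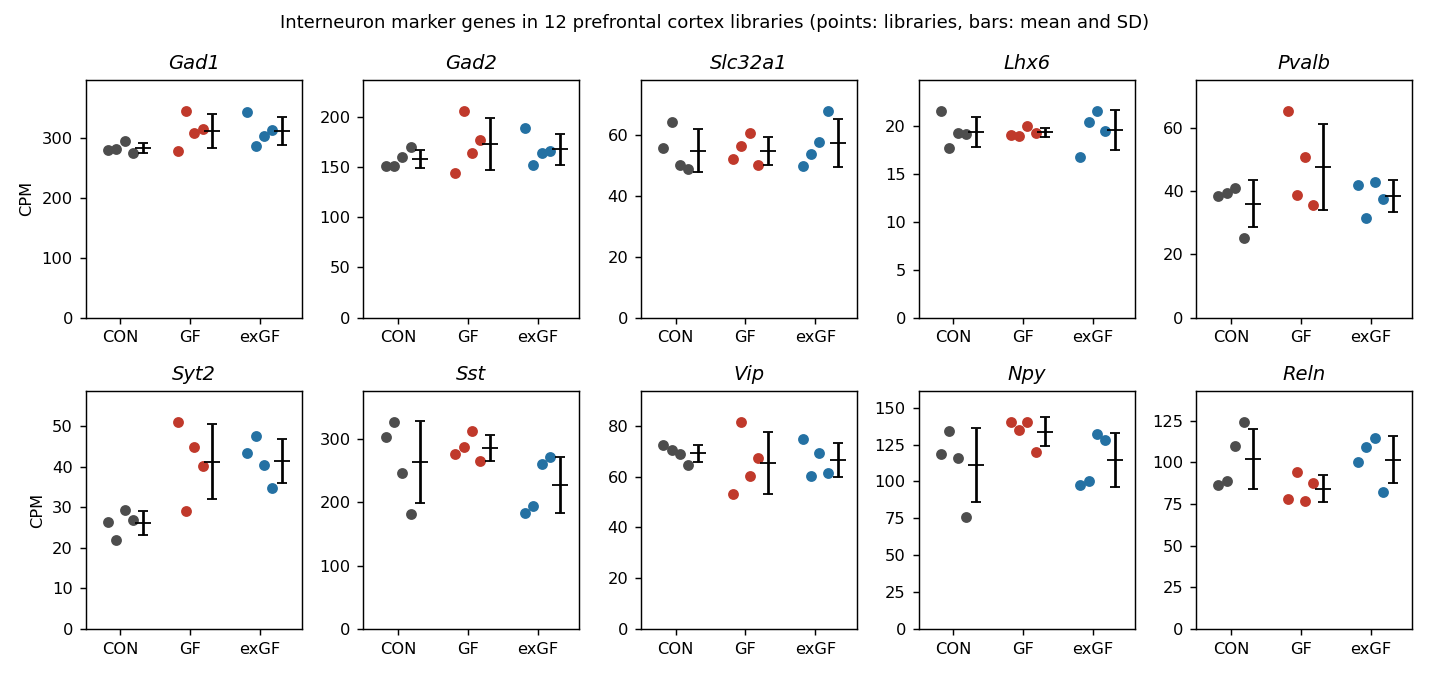
Levels of the 10 genes (CPM, y axis from 0) in the 12 libraries, by group; points are libraries in replicate order, and bars are mean and SD of 4 libraries. The 4 exGF libraries sit above every CON library for Syt2, and the groups overlap for the other 9 genes.

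Of the genes that every GABAergic neuron uses, Gad1 and Gad2 encode the enzymes that make GABA from glutamate, and Slc32a1 encodes the transporter that loads it into synaptic vesicles. Gad1 (ENSMUSG00000070880; GRCm38 chr2:70553072-70602014, plus strand) was at 280.5, 282, 295 and 274 CPM in CON replicates 1 to 4, at 278, 345, 308 and 315 CPM in GF replicates 1 to 4, and at 343, 286, 303 and 314 CPM in GFR1 to GFR4. In GF and in exGF, 3 of 4 libraries were above every CON library, and the remaining library of each group was within the CON range. The group means were 282.9 ± 8.68 (CON, n = 4), 312 ± 27.8 (GF, n = 4) and 311 ± 23.8 CPM (exGF, n = 4). By edgeR's quasi-likelihood test the log2 fold change was 0.15 in GF against CON (SE 0.08, 95% interval -0.02 to 0.32, adjusted p = 0.617), 0.13 in exGF against CON (SE 0.08, adjusted p = 0.952) and -0.02 in exGF against GF (SE 0.09, adjusted p = 0.981). The interval for GF against CON thus left room for no difference and for a rise of up to 1.25-fold.

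For Gad2 (ENSMUSG00000026787; chr2:22622205-22693874, plus strand) the libraries read 152, 152, 161 and 170.0 CPM in CON, 144, 206, 164 and 178 CPM in GF, and 189, 152, 165 and 166 CPM in exGF. GF replicate 2 and GFR1 were highest for both Gad genes, and GF replicate 1 was the lowest library of all for Gad2. Its means were 158 ± 8.79, 173 ± 26.2 and 168 ± 15.3 CPM in CON, GF and exGF, and its log2 fold changes were 0.14 (GF against CON, SE 0.10), 0.07 (exGF against CON, SE 0.09) and -0.06 (exGF against GF, SE 0.11). Leaving out GF replicate 2 gave 0.05 for Gad2 and 0.10 for Gad1 in GF against CON, and leaving out GFR1 gave 0.02 and 0.08 in exGF against CON. Slc32a1 (ENSMUSG00000037771; chr2:158610767-158615748, plus strand) was at 56.0, 64.5, 50.1 and 49.1 CPM in CON, 52.2, 56.4, 60.7 and 50.3 CPM in GF, and 49.8, 54.0, 57.8 and 68.1 CPM in exGF. Its groups overlapped over most of their range. Its highest libraries were CON replicate 2 and GFR4, the libraries with the highest striatal gene sums, and striatal projection neurons are GABAergic. Gad1 (282 and 314 CPM) and Gad2 (152 and 166 CPM) were not the highest of their groups in these libraries. Sst was the highest of its group in both, and Syt2 the lowest. The part of this tissue in the levels of Slc32a1 or of these other genes was not tested. The log2 fold change of Slc32a1 was 0.01 in GF against CON (SE 0.10, 95% interval -0.21 to 0.23) and 0.05 in exGF against CON (SE 0.12). Without CON replicate 2 and GFR4 the latter was 0.07. The antisense gene Gm14205 covers 24.9% of the exon bases of Slc32a1, and it had 0 counts in every library.

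Lhx6 (ENSMUSG00000026890; chr2:36081953-36105408, minus strand), the transcription factor of interneurons from the medial ganglionic eminence, was at 21.5, 17.7, 19.2 and 19.2 CPM in CON, at 19.0, 19.0, 20 and 19.2 CPM in GF, and at 16.7, 20.4, 21.6 and 19.4 CPM in exGF. The GF and CON ranges both lay within the exGF range. It differed least between groups of the 10 genes, with means of 19.4 ± 1.56, 19.3 ± 0.479 and 19.5 ± 2.07 CPM and a log2 fold change of 0.00 in GF against CON (SE 0.10, 95% interval -0.20 to 0.21). In exGF against CON the 95% interval was -0.23 to 0.23.

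Pvalb encodes parvalbumin, a calcium-binding protein that gives the fast-spiking cells their name, and Syt2 encodes synaptotagmin 2, a calcium sensor for transmitter release in their terminals. Pvalb (ENSMUSG00000005716; chr15:78191114-78206400, minus strand) was at 38.5, 39.4, 41.1 and 25.1 CPM in CON, at 65.4, 38.6, 50.8 and 35.6 CPM in GF, and at 41.8, 31.6, 42.9 and 37.6 CPM in exGF. GF replicates 1 and 3 were above every other library, CON replicate 4 was below every other library, and all 3 groups overlapped. The means were 36.0 ± 7.37, 47.6 ± 13.6 and 38.5 ± 5.12 CPM in CON, GF and exGF. The log2 fold change in GF against CON was 0.41 (SE 0.18, 95% interval 0.01 to 0.81, unadjusted p = 0.0438, adjusted p = 0.560 by edgeR's quasi-likelihood test). Leaving out CON replicate 4 gave 0.27, and leaving out GF replicate 1 gave 0.21. In exGF against CON it was 0.08 (SE 0.15, 95% interval -0.24 to 0.40), and in exGF against GF -0.32 (SE 0.17, 95% interval -0.68 to 0.05), or -0.12 without GF replicate 1.

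Syt2 (ENSMUSG00000026452; chr1:134646677-134762593, plus strand) showed the largest difference from CON of the 10 genes, in GF and in exGF. Its level was 26.5, 22.0, 29.4 and 26.8 CPM in CON, 51.0, 29.1, 44.9 and 40.2 CPM in GF, and 43.3, 47.6, 40.5 and 34.7 CPM in exGF. Every exGF library was above every CON library, and so were GF replicates 1, 3 and 4, while GF replicate 2 was just below CON replicate 3. The groups of 1 of the 10 genes did not overlap in exGF against CON, against 3.32% of all tested genes, and 0 of 10 in GF against CON and exGF against GF, against 5% and 3.53%. The means were 26.2 ± 3.04, 41.3 ± 9.26 and 41.5 ± 5.40 CPM in CON, GF and exGF (n = 4 each).

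In GF against CON the Syt2 fold was 1.59 (95% interval 1.27 to 1.98), or 0.67 on the log2 scale (SE 0.15, unadjusted p = 0.000511, adjusted p = 0.137 by edgeR's quasi-likelihood test). In exGF against CON it was 1.57 (95% interval 1.32 to 1.87), or 0.65 on the log2 scale (SE 0.12, unadjusted p = 8.42e-05, adjusted p = 0.111 by edgeR's quasi-likelihood test). By unadjusted p the gene ranked 58 of 15542 tested genes in the first comparison and 12 of 15813 in the second. GF and exGF differed by -0.01 on the log2 scale (SE 0.15, 95% interval -0.33 to 0.32), and folds from 0.79 to 1.25 lay within the interval of this difference. Syt2 passed the test in 4 of 14 alternative analyses of GF against CON and in 4 of 14 of exGF against CON. In each comparison 1 of the 14 was the main fit at a stricter threshold of 0.05, which Syt2 could not pass. In exGF against CON 1 of the 4 left out CON replicate 2 and GFR4 and was added after the data were seen. The analyses in which Syt2 passed included DESeq2 (adjusted p = 0.00874 and 0.000634). They also included edgeR without GF replicate 2 (log2 fold change 0.80, adjusted p = 0.0107) or without GFR4 (0.75, adjusted p = 0.0305). Over the alternatives the edgeR and DESeq2 adjusted p ran from 0.00406 to 0.388 in GF against CON and from 0.000634 to 0.405 in exGF against CON. The study's own lists of changed genes hold Syt2, and they were drawn from these libraries.

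**Figure D2:**
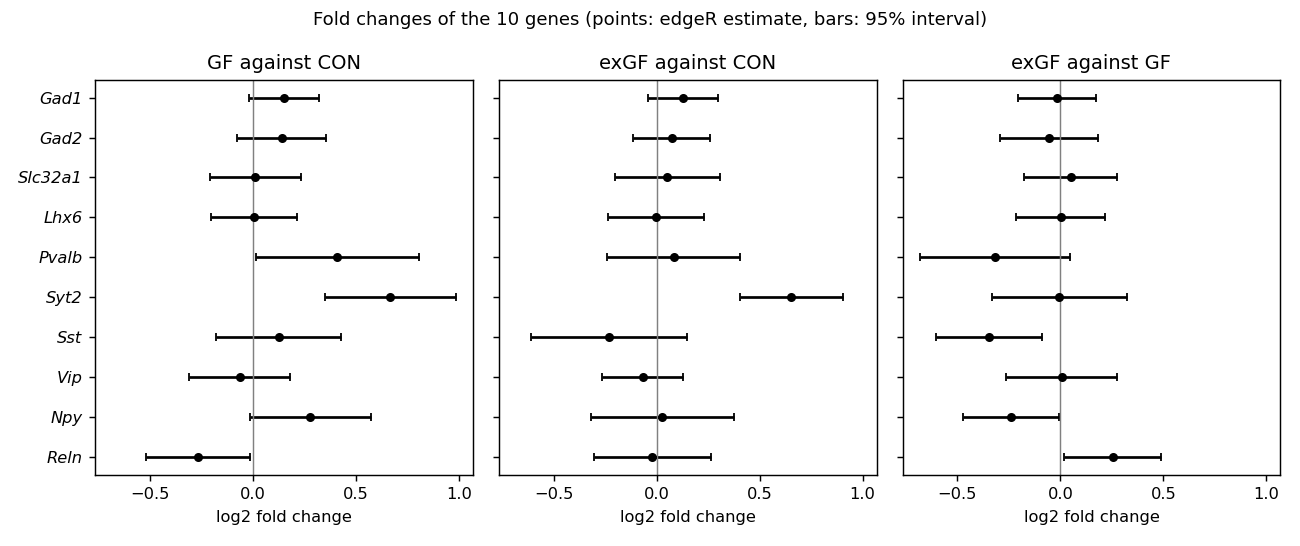
Log2 fold changes of the 10 genes (x axis) in GF against CON, exGF against CON and exGF against GF; points are edgeR estimates and bars 95% intervals. The interval of Syt2 lies at 0.35 to 0.98 in GF against CON and at 0.40 to 0.90 in exGF against CON. Those of Gad1, Gad2, Slc32a1, Lhx6 and Vip span 0 in every comparison.

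Genes of other cells were read from the same fits, oligodendrocyte genes first. The summed level of 9 such genes was 2194 to 2680 CPM in CON, 3373 to 5665 CPM in GF and 2181 to 3662 CPM in exGF, and 7 of the 9 passed the test as higher in GF than in CON (median log2 fold change 0.82, edgeR). In exGF against CON 0 of the 9 passed by edgeR or DESeq2 and 0 had an unadjusted p under 0.05, with a median of 0.16. The 6 pan-neuronal genes had a median of 0.19 in GF against CON and 0.10 in exGF against CON. Of these 0 passed by edgeR in either comparison, 3 and 1 had an unadjusted p under 0.05, and 2 passed by DESeq2 in GF against CON (Rbfox3 and Snap25). The part of the oligodendrocyte or the neuronal share of the tissue in the Syt2 and Pvalb values was not tested.

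The remaining genes encode secreted molecules. Sst (ENSMUSG00000004366; chr16:23889573-23890958, minus strand), the peptide somatostatin, was at 303, 326, 246 and 181 CPM in CON, at 276, 288, 313 and 265 CPM in GF, and at 184, 194, 260 and 271 CPM in exGF. The CON libraries spanned the widest range, and 3 of 4 exGF libraries were below every GF library. Its means were 264 ± 64.7, 285 ± 20.5 and 227 ± 44.6 CPM in CON, GF and exGF. The log2 fold change was 0.12 in GF against CON (SE 0.14, 95% interval -0.18 to 0.43), -0.23 in exGF against CON (SE 0.17, 95% interval -0.61 to 0.15) and -0.35 in exGF against GF (SE 0.12, unadjusted p = 0.0124, adjusted p = 0.736 by edgeR's quasi-likelihood test). The exGF against CON value was -0.11 without CON replicate 2 and -0.38 without CON replicate 4 (unadjusted p = 0.0230 and adjusted p = 0.518 by edgeR), and the GF against CON value was 0.24 and -0.02 without them.

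Npy (ENSMUSG00000029819; chr6:49822710-49829507, plus strand) encodes neuropeptide Y, which some somatostatin cells and neurogliaform cells release. It was at 119, 134, 116 and 75.6 CPM in CON, at 140.3, 135, 140.2 and 120.1 CPM in GF, and at 97.3, 100.4, 132 and 128 CPM in exGF. GF replicates 1 to 3 were above every CON library, CON replicate 4 was the lowest library, and GFR1 and GFR2 were below every GF library. With means of 111 ± 25.0, 134 ± 9.53 and 114 ± 18.2 CPM, its log2 fold change was 0.28 in GF against CON (SE 0.14, adjusted p = 0.605 by edgeR's quasi-likelihood test), 0.03 in exGF against CON (SE 0.16) and -0.24 in exGF against GF (SE 0.11). Without CON replicate 4 the GF against CON value was 0.13.

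Vip (ENSMUSG00000019772; chr10:5639218-5647617, plus strand), the vasoactive intestinal peptide of cells that inhibit other interneurons, was at 72.6, 70.4, 68.9 and 64.5 CPM in CON, at 53.0, 81.4, 60.1 and 67.4 CPM in GF, and at 74.6, 60.4, 69.4 and 61.6 CPM in exGF. GF held both the lowest and the highest library, and the log2 fold changes were -0.06 (SE 0.11), -0.07 (SE 0.09) and 0.01 (SE 0.13) in GF against CON, exGF against CON and exGF against GF. Its means were 69.1 ± 3.43, 65.5 ± 12.2 and 66.5 ± 6.74 CPM.

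Reln (ENSMUSG00000042453; chr5:21884454-22344702, minus strand) encodes reelin, an extracellular protein of layer 1 and neurogliaform cells. Its level was 86.6, 88.6, 110.0 and 124 CPM in CON, 78.2, 94.4, 77.1 and 87.4 CPM in GF, and 100.4, 109, 115 and 82.2 CPM in exGF. CON replicates 3 and 4 and 3 of 4 exGF libraries were above every GF library. The means were 102 ± 18.0, 84.3 ± 8.15 and 102 ± 14.3 CPM in CON, GF and exGF, and the log2 fold change was -0.27 in GF against CON (SE 0.12, 95% interval -0.52 to -0.01, adjusted p = 0.545 by edgeR's quasi-likelihood test), -0.02 in exGF against CON (SE 0.13) and 0.25 in exGF against GF (SE 0.11, 95% interval 0.02 to 0.49). Without CON replicate 4 the GF against CON value was -0.16.

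Some interneuron genes are under the control of the transcription factor CREB, which binds the cAMP response element TGACGTCA, and the Sst promoter is the textbook example of such a site. RefSeq windows of 300 bases (250 before and 50 after each transcription start, build GRCm38.p6) were searched on both strands for TGACGTCA and for its core TGACG, which the longer motif contains. All 10 genes had windows, 14 in all. The full element was in 1 of the 14 windows, that of Sst, and in 1.79% of 32851 windows of all genes. The core was in 4 of the 14, and in 20.8% of all windows. The stretches around these matches are printed because they show how the full element of Sst differs from the matches in Syt2, Vip and Gad2, with the match in capitals (Gad2 holds the reverse complement):
Sst, chr16:23890874-23890903, minus strand: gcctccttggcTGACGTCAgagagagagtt
Syt2, chr1:134646440-134646466, plus strand: ttccctgacctTGACGggaggcgaggc
Vip, chr10:5639128-5639154, plus strand: gatcactactgTGACGtctttcgggga
Gad2, chr2:22622283-22622309, plus strand: catttcccttcCGTCActctctcatct
The first base of the match stood 48 bases before the start in Sst, 161 in Syt2, 79 in Vip and 33 in Gad2. Npy, whose level followed that of Sst across libraries, had neither motif in its window. These matches are a description of the letters and were not tied to the counts.

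Compared per length of exon sequence (RPKM, mean ± SD over 12 libraries), Sst and Npy were the most abundant. Sst was at 359 ± 68.4 RPKM and Npy at 212 ± 35.1 RPKM. Gad1 (39.5 ± 3.16), Pvalb (39.1 ± 9.57) and Gad2 (28.3 ± 3.01 RPKM) followed, then Slc32a1 (19.9 ± 2.20) and Vip (19.7 ± 2.25 RPKM), and last Syt2 (4.76 ± 1.24), Reln (4.05 ± 0.651) and Lhx6 (4.04 ± 0.287 RPKM). Neighbours whose ranges overlapped were Gad1 and Pvalb (Gad1 higher in 6 of 12 libraries), Pvalb and Gad2 (11 of 12), Slc32a1 and Vip (6 of 12), Syt2 and Reln (7 of 12) and Reln and Lhx6 (7 of 12). The other steps of the order held in 12 of 12 libraries without overlap. Dividing by the longest transcript in place of all exon bases changed part of this order. Gad1 then stood at 83.9 RPKM against 41.7 for Pvalb, and Vip (26.5) above Slc32a1 (19.9). Reln (8.21) and Lhx6 (5.58) were then above Syt2 (5.28 RPKM).

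Ratios between subclass genes were compared within libraries. The log2 ratio of Syt2 to Pvalb was 0.25 higher in GF than in CON (exact permutation test, two-sided, p = 0.343), 0.55 higher in exGF than in CON (exact permutation test, p = 0.114) and 0.30 higher in exGF than in GF (exact permutation test, p = 0.229). Ratios of Sst to Pvalb and of Pvalb to Gad1 differed by -0.31 to 0.25 between groups. The lowest Benjamini-Hochberg adjusted p of the 9 exact permutation tests was 0.557, and the smallest raw p that 4 against 4 libraries allow is 0.0286.

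Across the 12 libraries some pairs of the genes varied together and others in opposite directions. Of 45 pairs 23 had a positive Pearson r of log2 CPM, with a median of 0.04. In a permutation test with 100000 resamples 5 pairs reached a Benjamini-Hochberg adjusted p under 0.1 (9 had an unadjusted p under 0.05). The share over pairs of all genes was not computed. The pairs below are therefore a description, and whether they vary together more than other genes do was not tested. Sst and Npy gave r = 0.88 (permutation p = 0.00023, adjusted p = 0.00675) and Spearman's rho = 0.79 (permutation p = 0.00341, adjusted p = 0.108). Leaving out the 2 libraries farthest from the median of Sst, CON replicate 4 and GFR1, r was 0.79 (permutation p = 0.01), and with the group means removed it was 0.95. In the libraries themselves, CON replicate 4, GFR1 and GFR2 were the lowest for both peptides.

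For Gad1 and Gad2 r was 0.87 (permutation p = 0.0003, adjusted p = 0.00675) and rho 0.73 (permutation p = 0.00878, adjusted p = 0.108). It was 0.65 (permutation p = 0.0448) without GF replicate 2 and GFR1 and 0.88 with the group means removed. Reln ran opposite to the peptides: r was -0.71 with Sst (permutation p = 0.00972, adjusted p = 0.0875; rho -0.73, permutation p = 0.00958, adjusted p = 0.108) and -0.71 with Npy (permutation p = 0.0065, adjusted p = 0.0731; rho -0.66, permutation p = 0.0237, adjusted p = 0.207). Without CON replicate 4 and GFR1 these were -0.64 (permutation p = 0.0354) and -0.56 (permutation p = 0.0891), the latter no longer under an unadjusted p of 0.05 over 10 libraries. Removing the group means left -0.68 and -0.60.

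Pvalb and Npy gave r = 0.75 (permutation p = 0.00468, adjusted p = 0.0702; rho 0.62, permutation p = 0.0338, adjusted p = 0.217). Without CON replicate 4 and GF replicate 1 this was 0.49 (permutation p = 0.160), no longer under an unadjusted p of 0.05 over 10 libraries, and with the group means removed it was 0.67. The count of pairs under 0.1 was 2 without CON replicate 4, GF replicate 3 or GFR2, and 7 without GFR4. No label gives a sequencing or dissection batch, so values within batches could not be had.

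**Figure D3:**
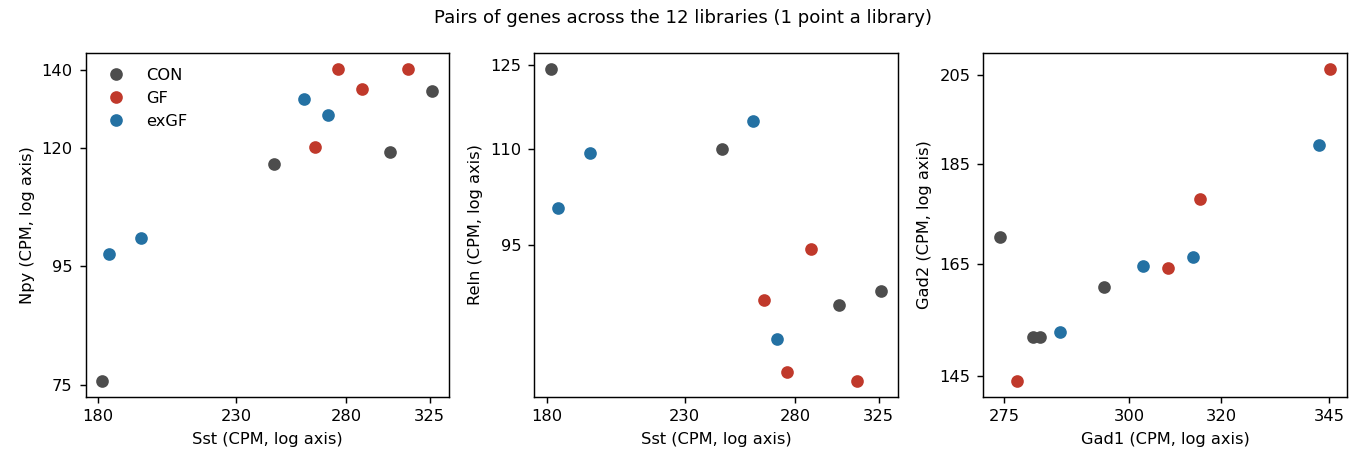
Levels (CPM, both axes logarithmic) of Sst and Npy, Sst and Reln, and Gad1 and Gad2 in the 12 libraries, 1 point a library. Libraries low in Sst were low in Npy and mostly high in Reln, with CON replicate 4 at 181 CPM Sst, 75.6 CPM Npy and 124 CPM Reln.

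Other genes of the same cells were read from lists of genes known for each subclass. Of 10 other genes of parvalbumin cells, 9 were higher in GF than in CON, where 8031 of 15542 tested genes were higher. In exGF against CON 8 of the 10 were higher, and 7569 of 15813 tested genes. Their medians were 0.16 and 0.17 on the log2 scale, against 0.01 and -0.01 over all genes tested. In GF against CON 8 of 9 excitatory neuron genes (median 0.12) and 6 of 6 pan-neuronal genes (0.19) were also higher. In exGF against CON these were 7 of 9 (0.04) and 4 of 6 (0.10). Of the parvalbumin cell genes 0 passed in either comparison by edgeR or DESeq2 (2 and 1 had an unadjusted p under 0.05). The smallest unadjusted p was that of Hapln4, a linker of the perineuronal nets around these cells, with 202 ± 35.4 CPM in GF and 193 ± 11.4 CPM in exGF against 157 ± 16.9 CPM in CON. This was a log2 fold change of 0.38 in GF against CON (SE 0.12, adjusted p = 0.336 by edgeR) and 0.29 in exGF against CON (SE 0.09, adjusted p = 0.656 by edgeR). Cox6a2, a subunit of cytochrome oxidase, had the smallest p in exGF against GF, at 3.09 ± 0.393 against 3.82 ± 0.687 CPM.

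Of 9 other genes of somatostatin cells 0 passed in any comparison by edgeR or DESeq2 (3, 1 and 1 had an unadjusted p under 0.05), with median log2 fold changes of -0.03 in GF against CON, -0.06 in exGF against CON and -0.05 in exGF against GF. Grin3a, an NMDA receptor subunit, was at 53.6 ± 9.27 CPM in GF and 70.3 ± 7.89 in CON (log2 fold change -0.38, adjusted p = 0.343 by edgeR), Nos1, the neuronal nitric oxide synthase, at 57.2 ± 8.20 CPM in exGF and 72.6 ± 14.9 in CON (-0.36), and Crhbp, which binds corticotropin-releasing hormone, at 32.9 ± 4.24 CPM in exGF and 39.6 ± 4.00 in GF (-0.29). The 12 other genes of VIP, CCK and Lamp5 cells had medians of -0.08, -0.16 and -0.06, and 0 passed by edgeR or DESeq2 (1 in each comparison had an unadjusted p under 0.05). Among them Crh, corticotropin-releasing hormone, was at 5.92 ± 1.02 CPM in GF and 3.89 ± 0.609 in CON (log2 fold change 0.62, adjusted p = 0.275 by edgeR). Calb2, calretinin, was at 14.6 ± 3.23 CPM in exGF and 19.5 ± 3.69 in CON (-0.42), and the peptide gene Cck at 338 ± 30.5 CPM in exGF and 415 ± 36.0 in GF (-0.31).

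Of 17 transcription factors and lineage genes of interneurons 16 were tested, and 0 passed by edgeR or DESeq2 (0, 2 and 0 had an unadjusted p under 0.05), with medians of -0.04, -0.10 and -0.08 in GF against CON, exGF against CON and exGF against GF. Sp8, a factor of the caudal ganglionic eminence that neuroblasts of the olfactory bulb also make, was at 1.19 ± 0.415 CPM in exGF, 1.71 ± 0.816 in GF and 2.46 ± 1.03 in CON. The 3 tested olfactory bulb genes were also lower in GF and exGF than in CON and, unlike Sp8, higher in exGF than in GF, and 0 passed by edgeR (2, 1 and 0 had an unadjusted p under 0.05, and Cdhr1 passed by DESeq2 in GF against CON). All 4 genes of that list had a sum of 8.33 to 22.0 CPM in CON, 5.75 to 9.16 in GF and 6.44 to 11.7 in exGF. Their part in the Sp8 values was not tested.

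Of 7 genes of GABA uptake, breakdown and chloride transport, 1 passed in GF against CON by edgeR and by DESeq2, and 0 in the other comparisons, where 1 each had an unadjusted p under 0.05. Slc6a13, a GABA transporter found mainly in the leptomeninges, was lower in GF (10.8 ± 1.06 CPM) than in CON (21.03 ± 3.49 CPM) (log2 fold change -0.94, SE 0.13, adjusted p = 0.0120 by edgeR's quasi-likelihood test). In exGF it was at 14.7 ± 3.06 CPM (log2 fold change against CON -0.52, SE 0.16, adjusted p = 0.610 by edgeR). The 7 meningeal genes, a list added after the data had been seen, were all lower in GF than in CON (median -0.46, 1 passed by edgeR), with sums of 163 to 226 CPM in CON, 106 to 152 in GF and 130 to 168 in exGF. Their part in the Slc6a13 result was not tested. The median of the uptake and transport list was -0.01 in GF against CON.

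**Figure D4:**
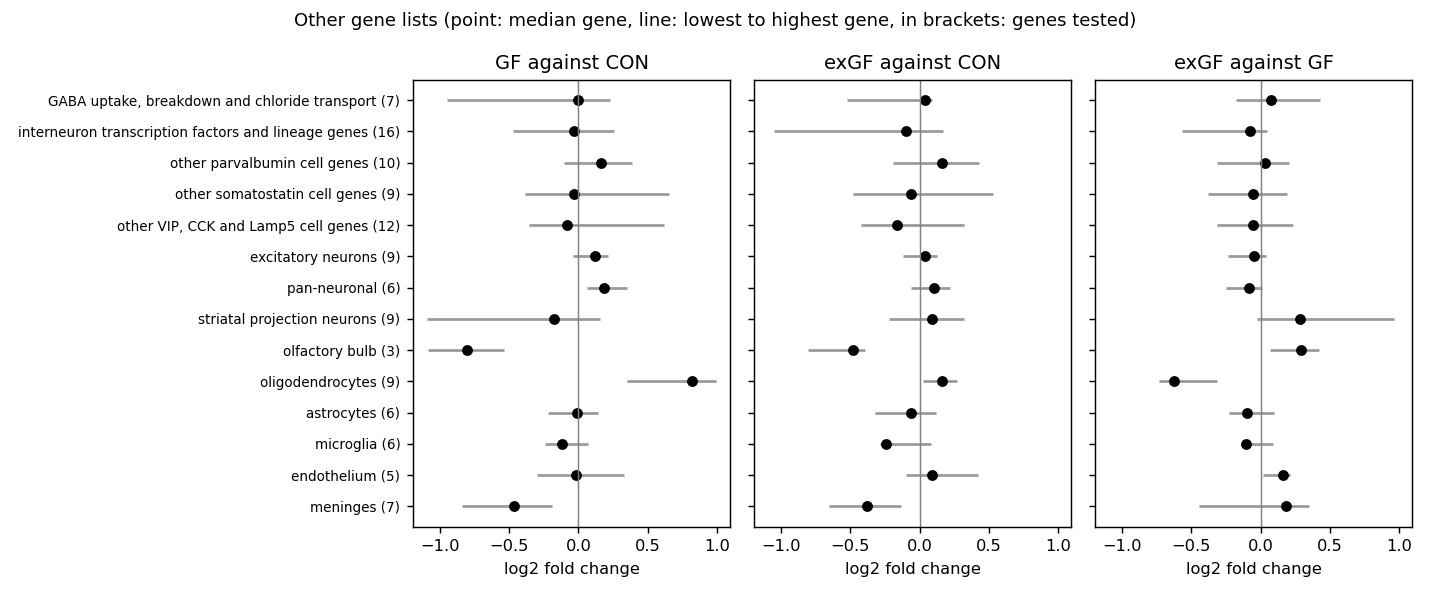
Log2 fold changes of the other gene lists (x axis) in the 3 comparisons; points are the median gene, lines run from the lowest to the highest gene, and the number of genes tested is in brackets. The oligodendrocyte genes stand to the right in GF against CON (median 0.82). The other parvalbumin cell genes have medians of 0.16 and 0.17 in GF and exGF against CON. Those of the excitatory neuron genes are 0.12 and 0.04, and those of the pan-neuronal genes 0.19 and 0.10.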

How the data were processed

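RNA sequencing was analysed in 12 PFC libraries of CON, GF and exGF mice (4 each), grouped by the labels. The authors used Trimmomatic (0.32) for trimming and STAR for alignment to GRCm38 (2.3.1u per the labels, another version per the methods), counted pairs per Ensembl gene with HTSeq (0.6.0) without regard to strand, and deposited raw counts. Summary rows of pairs given to no gene (4.57% to 7.31% of pairs outside genes) were left out. Nothing says that pools were separate litters.

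Of 41388 gene rows, 40340 matched a GRCm38 annotation. The 2 groups of a comparison were filtered by filterByExpr, scaled by TMM and tested with edgeR 4.0.16 (R 4.3.3) by the quasi-likelihood test with Benjamini-Hochberg adjustment, called at an adjusted p under 0.1. CPM used TMM library sizes over 12 libraries. RPKM used the union of exon bases. Correlations and likeness used log2 CPM (prior count 1). The fit was tested on simulated data. The mean chi-square per gene between libraries of a group was at least 9.26, so none was a duplicate, and averaged over genes libraries differed by more than the sampling of counts. The source of this spread was not tested. Alternatives were RLE scaling, no filter, DESeq2 1.42.0, a fit of 12 libraries, the replicate block, libraries left out and a stricter threshold of 0.05.

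Named were the 10 genes; of each other list, called genes and the gene with the smallest p per comparison; and the 5 genes most like Syt2 and Gad1. The members and lists were chosen with earlier results of these data known. The result of 1 gene that this rule names is not reported here.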

Additional observations from a re-analysis of the deposited data

Results flagged for a closer look

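Pvalb in CON replicate 4 (25.1 CPM) stood far below the other CON libraries, of which the nearest was at 38.5 CPM. The gap was 0.833 of the group's range, past Dixon's 95% critical value for 4 samples. The log2 ratio of Pvalb to Gad1 in the same library was -3.45, with the nearest CON library at -2.87 (0.953 of the range). These were 2 of 39 groups of values tested, and chance alone flags about 1 in 20. Both values come from 1 library and from the Pvalb count that they share.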

How the results depend on the processing

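None of the 10 genes passed in any comparison, and Syt2 was the 1 gene to pass under any alternative. It did so in GF against CON with no filter on low counts, by DESeq2 and without GF replicate 2, and in exGF against CON with no filter, by DESeq2, without GFR4 and without CON replicate 2 and GFR4 together (added after the data were seen), so that the count was 1 there, and 0 to 1 over single libraries left out. Over all genes the counts that passed, 39, 11 and 0, became 221, 48 and 32 with no filter and 204, 60 and 21 by DESeq2 (GF against CON, exGF against CON, exGF against GF). Exceptions to 0 in exGF against GF were 2 in the fit of 12 libraries and 0 to 7 over single libraries left out. GF against CON gave 27 to 60 with single libraries left out, the highest without GF replicate 2, and exGF against CON gave 8 to 14, and 17 without CON replicate 2 and GFR4. The other gene lists, without the added meningeal list, gave 8 genes in GF against CON and 13 with no filter, and in exGF against GF 0, but 5 with no filter and 1 by DESeq2. The cause was not tested.

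Over all genes passing the filter, same-numbered CON and GF libraries did not deviate together (correlations -0.054 to 0.0259). Such correlations cannot show whether part of the genes deviate together. Slc32a1, Pvalb, Sst and Npy were lowest in replicate 4 of both groups, and Lhx6 and Syt2 in replicate 2 of both. For Gad1, Gad2, Vip and Reln the lowest libraries had different numbers. Whether same-numbered libraries share a batch was not tested. With the replicate block, 1 of the 10 genes passed in GF against CON, Syt2 (log2 fold change 0.65, adjusted p = 0.0686 by edgeR's quasi-likelihood test), among 51 of all genes (30 higher, 21 lower) against 39 without the block.

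Of 410 alternative values of single genes 44 changed sign, all without passing the test. The 410 include the values at the stricter threshold, which are those of the main fit and could not change sign. In GF against CON Lhx6 was -0.00048 by RLE, -0.013 with no filter and -0.00058 by DESeq2, and Slc32a1 -0.0048 with no filter. In exGF against CON Lhx6 was 0.0035 by RLE, 0.011 with no filter, 0.0025 by DESeq2 and 0.0047 in the fit of 12 libraries, and Reln 0.022 without CON replicate 2 and GFR4. With single libraries left out, GF against CON ran from -0.038 to 0.098 for Slc32a1, -0.036 to 0.058 for Lhx6, -0.019 to 0.243 for Sst and -0.185 to 0.013 for Vip. ExGF against CON ran from -0.021 to 0.145 for Slc32a1, -0.048 to 0.072 for Lhx6, -0.059 to 0.179 for Pvalb, -0.120 to 0.138 for Npy and -0.082 to 0.085 for Reln. ExGF against GF ran from -0.073 to 0.035 for Gad1, -0.127 to 0.037 for Gad2, -0.044 to 0.105 for Slc32a1, -0.047 to 0.062 for Lhx6, -0.145 to 0.118 for Syt2 and -0.074 to 0.127 for Vip.

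Levels by longest transcript were 83.9 RPKM for Gad1, 5.58 for Lhx6, 26.5 for Vip and 8.21 for Reln. Pairs of genes under an adjusted p of 0.1 in the permutation test numbered 2 to 7 with single libraries left out.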

Other observations

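Over the 12 libraries, the genes whose log2 CPM was most like that of Syt2 by Pearson's r, a description over libraries that share groups and depth, were Dusp3, a dual-specificity phosphatase (0.93), Hapln4 (0.93), Casp9, a caspase (0.93), Nefm, the medium neurofilament (0.92), and Vamp1, a vesicle protein of release sites (0.92). Nefm had a mean of 256 ± 68.9 CPM in GF and 251 ± 21.1 CPM in exGF against 187 ± 28.7 CPM in CON. In the order CON, GF and exGF, Vamp1 was at 110.3 ± 6.54, 139.9 ± 30.5 and 147 ± 10.2 CPM, and Casp9 at 75.1 ± 7.87, 105 ± 15.0 and 104 ± 6.72 CPM. With the group means removed r stayed between 0.78 (Casp9) and 0.94 (Dusp3).

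The genes most like Gad1 were Fam49b (0.90), Pdk3, a kinase of the pyruvate dehydrogenase complex (0.88), Lrrc40 (0.87), Hsf2, a heat shock factor (0.87), and Gad2 (0.87). Fam49b had a mean of 165 ± 21.5 CPM in GF and 156 ± 19.3 CPM in exGF against 144 ± 5.28 CPM in CON. In the marker lists of other cells, Neurod2, a transcription factor of excitatory neurons, was at 69.0 ± 4.52 CPM in GF and 60.9 ± 4.32 in CON, and Snap25, a synaptic fusion protein, at 3484 ± 472 CPM in GF and 2760 ± 192 in CON. By edgeR neither passed the test, and by DESeq2 Snap25 did. Of 6 astrocyte, 6 microglia and 5 endothelial genes 0 passed in any comparison by edgeR or DESeq2. Those with an unadjusted p under 0.05 numbered 0, 1 and 2 in GF against CON, 2, 4 and 1 in exGF against CON, and 0, 0 and 1 in exGF against GF.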
